A study of Mus musculus with 10 samples.

Results

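The genes described here were 45 genes of the Wnt pathway, including *Shisa6*, read on microarrays of mouse spermatogonia. A probe belonged to the set when it was no control and the array named it by 1 of the 45 listed symbols. All 45 symbols were on the array, by 60 of its 55681 probes, against 31982 gene names in all. The 13 genes with several probes were represented by the brightest, chosen on the mean over all arrays. The level of a gene is given as that probe's log2 signal minus the log2 75th percentile of its array, so that 0 is the 75th percentile. Levels were compared between samples for the same gene and not between genes.

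Wnt ligands are secreted glycoproteins, made active by the acyltransferase Porcn, that bind Frizzled receptors together with the co-receptors Lrp5 and Lrp6. Bound receptors halt the complex of Axin, Apc and Gsk3b that destroys β-catenin, the protein encoded by *Ctnnb1*, which then enters the nucleus and acts with the factors Tcf7, Tcf7l1, Tcf7l2 and Lef1. In the seminiferous tubule, Wnt signaling is known to promote the differentiation of undifferentiated spermatogonia, and Shisa6 is known as a cell-autonomous inhibitor of it.

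FGF5, a growth factor of the FGF family, was the subject of both experiments. In the culture experiment, wild-type germline stem (GS) cells, which are spermatogonia propagated in vitro with GDNF and FGF2, were deprived of both factors for 3 days, after which 100 ng/mL FGF5 was (n = 2) or was not (n = 2) added for 24 hr. The labels give their strain as C57BL/6, whereas the methods derive GS cells from mice of mixed C57BL/6 and ICR origin. In the other experiment, GFRα1+ cells were sorted by their GFP from the testes of *Gfrα1-GFP* knock-in mice on a C57BL/6 background, aged 2.5 months, that were WT (n = 3) or *Fgf5*-/- (n = 3). The *Fgf5*-/- mice carry the *go-moja* allele in every cell, so the loss was not restricted to a cell type, and all 6 sorted samples carry the reporter. The arrays of cultured cells and those of sorted cells were on different slides.

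By array, the 75th percentile ranged from 575.2 to 1091.1 intensity units, and the share of probes well above background from 55.2% to 65.8%. The 9 markers of undifferentiated spermatogonia and 4 of germ cells were well above background on all 10 arrays, whereas *Amh* of Sertoli cells, *Cyp11a1* and *Lhcgr* of Leydig cells and *Lyz2* and *Cd163* of macrophages were so on none. Other markers of these cells were above background on all 10 arrays: *Wt1*, *Gata4*, *Rhox5* and *Aard* of Sertoli cells, *Cyp17a1* and *Star* of Leydig cells, and *Cd68* and *Csf1r* of macrophages. The summed level of the 10 markers of fibroblasts and feeder cells, as a linear multiple of the 75th percentile, ranged from 21.3 to 31.8 in GS cells and from 28.4 to 35.4 in sorted cells. *Fn1* made up the largest part of this sum on every array. The *Fgf5* probe was well above background on 1 of the 6 arrays of sorted cells, that of *Fgf5*-/- sample 1, so it gave no check of the genotype. Replicate numbers do not state separate cultures or animals, and p-values then measure only the spread between samples.

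Most of the pathway was present in both materials. Of the 45 genes, 34 were well above background on all 10 arrays, and 9 on some. *Dkk1*, a secreted antagonist of Lrp5 and Lrp6, and the ligand gene *Wnt10b* were at background throughout. All 5 genes of the destruction complex and *Porcn* were above background on every array, as were 12 of the 13 receptors.

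The ligands were the least complete group, with 4 of 10 above background on every array. These were *Wnt3*, *Wnt5a*, *Wnt7a* and *Wnt11*. *Wnt3a*, which encodes a classical activator of β-catenin, reached -2.58 in WT sample 3 and lay between -7.41 and -6.77 on the other 9 arrays, which were at background. It therefore rests on a single array and was tested in no comparison. *Wnt4*, *Wnt6*, *Wnt7b* and *Wnt10a* were above background on some arrays of GS cells and on some or, for *Wnt10a*, all of those of sorted cells.

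**Figure D1:**
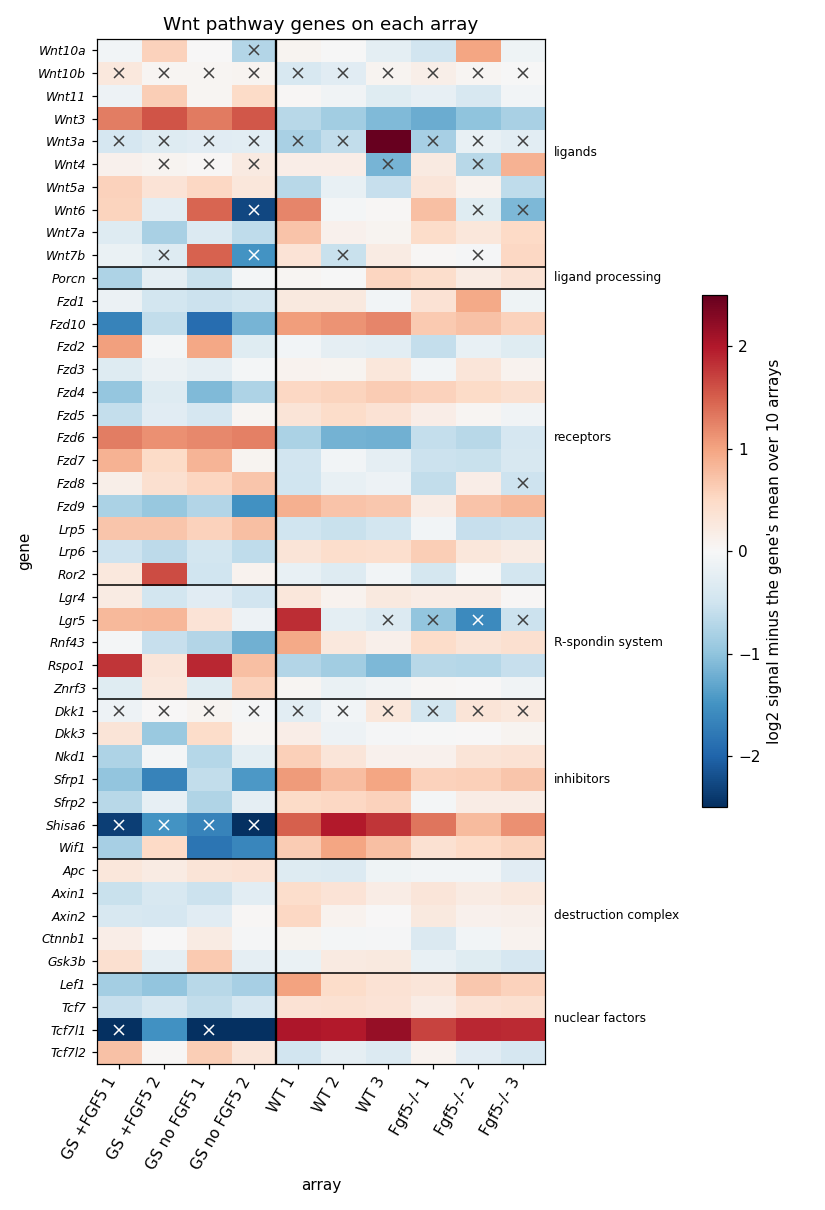
Log2 signal of each of the 45 genes on each of the 10 arrays, as the difference from the gene's own mean over the arrays, with genes (rows) grouped by role and crosses on values not well above background. Colors stop at 2.5 in either direction, and the sharpest changes run between the 4 arrays of GS cells and the 6 of sorted cells, as for *Tcf7l1*, *Shisa6*, *Fzd10*, *Fzd6* and *Wnt3*.

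*Shisa6*, measured by a probe at chr11:66025299-66025358 of mm9, differed in detection between the materials. In the sorted cells it read -2.23, -1.73 and -1.94 in the WT samples and -2.38, -2.93 and -2.57 in the *Fgf5*-/- samples. All 3 *Fgf5*-/- samples lay below all 3 WT samples. The difference, *Fgf5*-/- minus WT, was -0.66 ± 0.19 on the log2 scale (SE, n = 3 per group), a level of 0.634 of WT (limma, unadjusted p = 0.0128, adjusted p = 0.728), and it did not pass the test. In GS cells, *Shisa6* read -6.07 and -5.22 with FGF5 and -5.39 and -6.72 without it. None of these 4 arrays was well above background, the groups overlapped, and no comparison of the 2 culture conditions was made.

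To ask which Wnt genes responded to FGF5 in culture, GS cells with and without it were compared, for 38 of the 45 genes that were well above background on both arrays of a group. None passed limma at an adjusted p under 0.05, as for all 34589 probes tested (0%). The unadjusted p was under 0.05 for 2 genes, *Wif1* and *Lgr5*, which is 5.26% of the genes beside 2.54% of all probes. The median difference was 0.00 over the Wnt genes and -0.03 over all probes. Groups did not overlap for 8 genes, 21.1% beside 22.7% of all probes: 4 were higher with FGF5, where all probes gave 8.18%, and 4 were lower, where all probes gave 14.5%. The precision is limited by having 2 arrays per group. Even *Etv5*, a known FGF-responsive gene outside the set, did not pass, although it was 15.2-fold higher with FGF5 without overlap (3.92 ± 0.66). A gene that did not pass is thus not shown to be unchanged.

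The 4 genes that were higher without overlap were *Wif1*, *Ror2*, *Lgr5* and *Rnf43*, and none of them passed the test. *Wif1*, encoding a secreted protein that binds Wnt ligands, read -1.40 and -0.06 with FGF5 and -2.39 and -2.20 without. The difference was 1.56 ± 0.47 on the log2 scale (SE, n = 2 per group; limma, unadjusted p = 0.0231, adjusted p = 0.9999), a ratio of 2.96. FGF5 sample 1 lay nearer to the untreated samples than to FGF5 sample 2.

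*Lgr5*, an R-spondin receptor and a target of β-catenin in many tissues, read -3.53 and -3.51 with FGF5 and -4.01 and -4.48 without, a difference of 0.72 ± 0.22. *Rnf43*, a ligase that removes Frizzled from the membrane, read -3.46 and -3.98 against -4.14 and -4.60, a difference of 0.65 ± 0.28. For *Ror2*, a receptor of non-canonical Wnt ligands, the levels were -1.38 and -0.01 against -2.13 and -1.55, a difference of 1.15 ± 0.51. As with *Wif1*, FGF5 sample 2 stood above the other 3 samples.

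Lower without overlap were *Axin2*, *Apc*, *Lef1* and *Fzd8*, by differences of -0.28 ± 0.18, -0.10 ± 0.16, -0.16 ± 0.17 and -0.35 ± 0.18, none past the test. *Axin2*, a scaffold of the destruction complex and negative regulator of Wnt signaling, which β-catenin switches on in many tissues, read -1.80 and -1.82 with FGF5 and -1.68 and -1.37 without. Among 8 genes known as targets of β-catenin in many tissues (*Axin2*, *Lef1*, *Tcf7*, *Nkd1*, *Rnf43*, *Znrf3*, *Lgr5* and *Dkk1*), 7 were tested. Of these, 2 were higher without overlap and 2 were lower without overlap (57.1% in all, beside 22.7% of all probes), with a median difference of 0.01.

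Several genes differed more by sample number than by FGF5. For 26 of the 38 genes (68.4%) both samples of one number lay above both of the other, beside 58.2% of all probes. *Rspo1*, an R-spondin ligand, read 4.10 and 4.19 in the samples numbered 1, with and without FGF5, and 2.61 and 3.06 in those numbered 2. *Fzd2* read 3.41 and 3.35 against 2.34 and 2.07. *Col1a1*, a collagen gene and marker of fibroblasts, read 3.49 and 3.71 against 1.56 and 2.02 in the same order. Of the other fibroblast collagens, *Col1a2* was higher in the samples numbered 2, at -0.10 and -0.15 against 0.28 and 0.41, and so was *Col3a1*. Of all 10 fibroblast and feeder markers, 8 were above background on every GS cell array, *Lum* and *Pdgfrb* were at background, and the summed level ranged from 21.3 to 28.5 with FGF5 and from 22.2 to 31.8 without. Their part in the result was not tested.

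In the comparison of sorted *Fgf5*-/- with WT cells, which asks whether the loss of FGF5 altered GFRα1+ cells, 39 Wnt genes were tested. None passed limma at an adjusted p under 0.05, as for all 30269 probes (0%), and the smallest adjusted p was 0.728. The unadjusted p was under 0.05 for 8 genes (20.5%) beside 6.79% of all probes. Groups did not overlap for 10 genes (25.6%) beside 16.2% of all probes, with 8 lower in *Fgf5*-/- cells, where all probes gave 9.2%, and 2 higher, where all probes gave 7.01%. The median difference was -0.07 over the Wnt genes and -0.03 over all probes. These counts describe the list and carry no test of their own.

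The inhibitors held 4 of the 8 lower genes. Of 6 inhibitors tested, 4 lay below WT in every *Fgf5*-/- sample (66.7% beside 9.2% of all probes): *Shisa6*, *Sfrp2*, *Sfrp1* and *Wif1*. *Sfrp2* and *Sfrp1* encode secreted decoys related to the ligand-binding part of Frizzled. *Sfrp2* read 1.85, 1.89 and 1.95 in WT and 1.34, 1.57 and 1.56 in *Fgf5*-/- cells, a difference of -0.41 ± 0.11 (limma, unadjusted p = 0.00902, adjusted p = 0.728). *Sfrp1* read -0.26, -0.56 and -0.34 against -0.75, -0.73 and -0.64, a difference of -0.32 ± 0.12 (unadjusted p = 0.0334). *Wif1* read 0.07, 0.42 and 0.18 against -0.19, -0.07 and -0.01, a difference of -0.31 ± 0.13 (unadjusted p = 0.0483). None of these differences passed the adjusted threshold. The remaining inhibitors, *Dkk3* at 0.02 ± 0.12 and *Nkd1* at -0.07 ± 0.16, overlapped between genotypes.

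**Figure D2:**
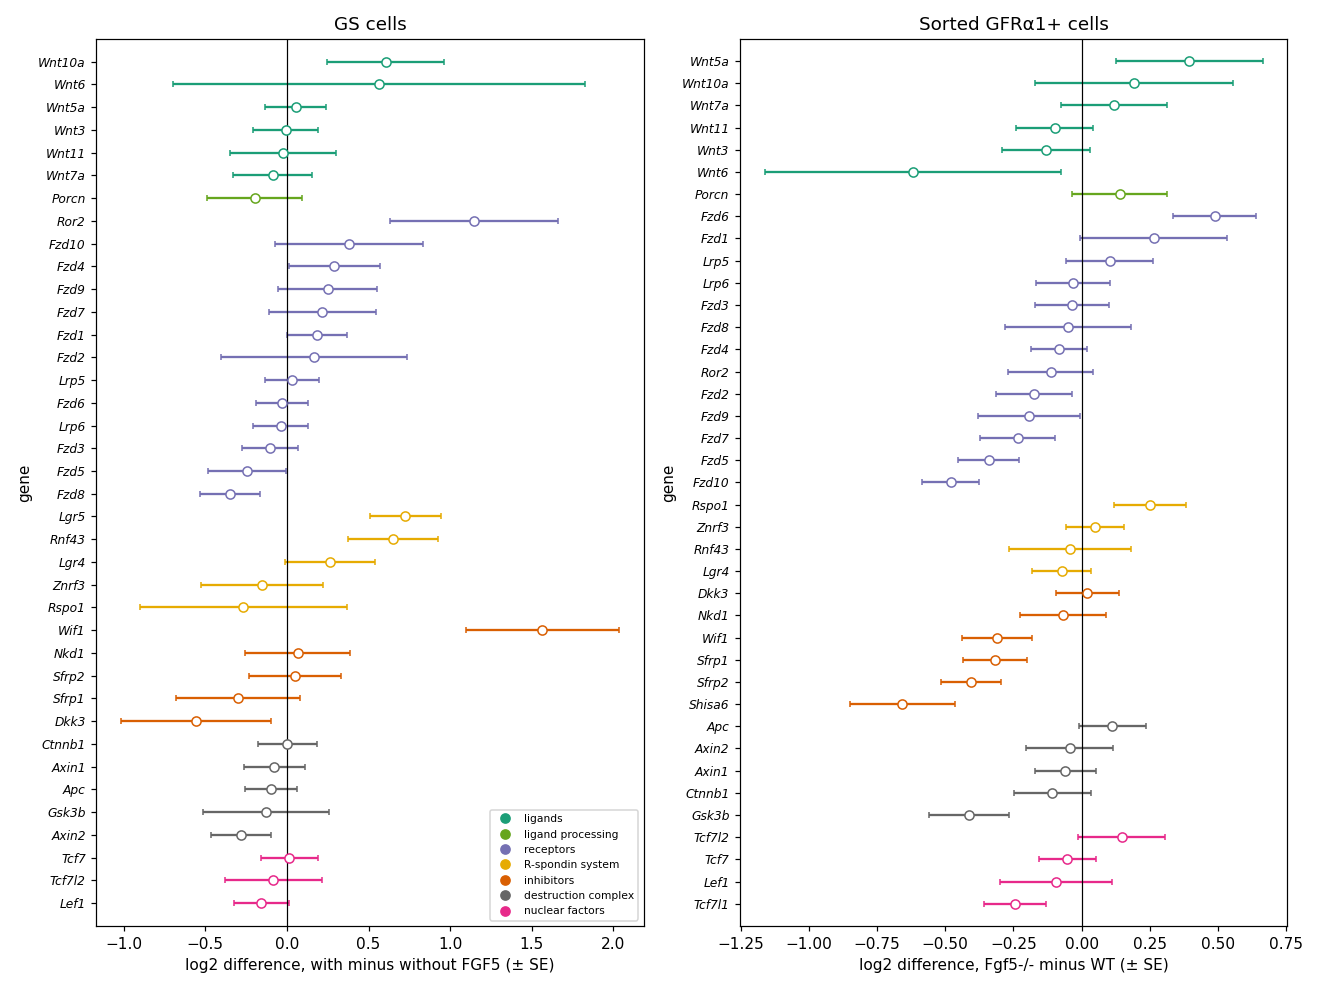
Log2 differences with FGF5 minus without in GS cells (left) and *Fgf5*-/- minus WT in sorted GFRα1+ cells (right) for each tested gene, colored by role, with bars of 1 SE. All points are open because no gene passed an adjusted p of 0.05, and the x axes of the panels differ in range. *Wif1* had the highest difference in culture (1.56) and *Shisa6* the lowest between genotypes (-0.66).

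Among receptors, *Fzd10* read 2.32, 2.39 and 2.5 in WT and 1.92, 2.0 and 1.86 in *Fgf5*-/- cells. The difference of -0.48 ± 0.11 had the smallest unadjusted p of the set (0.00321) and an adjusted p of 0.728 (limma). *Fzd6* went the other way, at -3.15, -3.53 and -3.56 against -2.94, -3.05 and -2.78, a difference of 0.49 ± 0.15. Frizzled 6 is known for roles in planar polarity. *Fzd5* differed by -0.34 ± 0.11 without overlap, and the other 10 receptors overlapped between genotypes.

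*Gsk3b*, the kinase that marks β-catenin for destruction, differed by -0.41 ± 0.15 on its brightest probe, and its other 2 probes gave -0.07 and -0.20. *Tcf7l1*, a nuclear factor known mainly as a repressor, read -0.02, -0.06 and 0.13 in WT and -0.35, -0.15 and -0.17 in *Fgf5*-/- cells. *Rspo1* read 1.57, 1.44 and 1.18 against 1.61, 1.60 and 1.73. The latter was a difference of 0.25 ± 0.13 and that of *Tcf7l1* was -0.24 ± 0.11, both without overlap and both with an unadjusted p over 0.05. *Tcf7l2* differed by 0.15 ± 0.16 on its brightest probe, and its other 2 probes gave the opposite direction, -0.53 and -0.34. None of the 3 passed the test. *Lgr5* was above background in WT samples 1 and 2 (-2.5 and -4.60) and at background in the 4 other sorted samples. WT was thus at least 1.90-fold higher, a value that came from WT sample 1 and was not tested.

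The genes whose groups overlapped included the largest ligand differences, *Wnt6* at -0.62 ± 0.54 (above background in 1 of 3 *Fgf5*-/- samples) and *Wnt5a* at 0.39 ± 0.27, and also *Fzd1* at 0.26 ± 0.27 and *Wnt10a* at 0.19 ± 0.36. As a multiple of the 75th percentile, the 9 markers of undifferentiated spermatogonia summed to levels from 141 to 153 in the WT samples and from 125 to 140 in the *Fgf5*-/- samples. The 4 markers of differentiating spermatogonia, all above background, summed to levels from 139 to 167 and from 144 to 163. Of single markers, the collagen gene *Col3a1* lay higher in all *Fgf5*-/- samples, by 1.96 ± 0.32. It was above background in 1 of 3 WT samples. Also higher were *Cnn1* of myoid cells (0.46 ± 0.14) and *Spo11* (0.78 ± 0.17) and *Piwil1* (0.29 ± 0.14) of spermatocytes. Lower were *Etv5* (-0.31 ± 0.12), *Cyp17a1* (-1.06 ± 0.54), *Tex101* (-0.33 ± 0.16), *Fn1* (-0.20 ± 0.11) and *Twist1* (-0.21 ± 0.10). Each of these was without overlap, and none passed the test. *Col1a2* differed by -0.71 ± 0.29 with overlap. The part of these markers in the differences of the inhibitors was not tested. In such bulk samples, fewer cells of a type and less RNA per cell cannot be told apart.

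The largest differences ran between cultured and sorted cells. Of 40 genes tested, 30 passed limma at an adjusted p under 0.05, of which 9 were higher in GS cells and 21 lower. The shares were 22.5% higher and 52.5% lower, beside 41.9% and 25.7% of all 35805 probes tested. The median difference, cultured minus sorted, was -0.37 over the Wnt genes and 0.26 over all probes. Material and slide cannot be told apart in this comparison. The same holds for the 3 days without GDNF and FGF2, which all GS cells went through. It also holds for the strain origin given in the methods and for the *Gfrα1-GFP* reporter of the sorted cells. The 9 markers of undifferentiated spermatogonia summed to 97.3 to 104 in GS cells and 125 to 153 in sorted cells. Of these, *Etv5* (-3.50 ± 0.32), *Gfra1* (-3.01 ± 0.45), *Ret* (-2.11 ± 0.21), *Nanos2*, *Sall4* and *Id4* were lower in culture. *Zbtb16* was higher (0.25 ± 0.10), and *Lin28a* and *Utf1* did not pass. The 8 Sertoli cell markers summed to 2.23 to 2.85 in GS cells and 4.51 to 5.84 in sorted cells. Singly, *Sox9* was higher in culture (2.03), *Cldn11*, *Dhh*, *Rhox5* and *Gata4* were lower, and *Wt1* and *Aard* did not pass. The 4 endothelial markers summed to 8.07 to 9.66 and 2.38 to 4.64 but split. Of these, *Kdr* and *Pecam1* were higher in culture, at 1.43 ± 0.20 and 1.05 ± 0.10. *Cdh5* and *Tek* were lower, at -2.35 ± 0.15 and -3.00 ± 0.33, with *Tek* at background in GS cells. The 4 markers of differentiating spermatogonia summed to 74.8 to 97.7 in GS cells and 139 to 167 in sorted cells, and the 4 of spermatids to 0.825 to 1.01 and 4.27 to 14.7. The fibroblast marker *Col1a2* was 12.7-fold higher in culture, and *Dcn* was above background on all 4 arrays of GS cells and on 1 of 6 of sorted cells. The fibroblast list split, with *Col3a1* (1.57 ± 0.28) and *Postn* (1.49 ± 0.19) also higher in culture. *Pdgfrb* (-2.12 ± 0.21), *Fn1* (-0.75 ± 0.09), *Twist1* (-0.54 ± 0.20) and *Pdgfra* (-0.46 ± 0.12) were lower. *Col1a1* did not pass and *Lum* was not tested. The part of these markers in the differences was not tested. The split moved with the scaling, to 12 higher and 17 lower with the normexp background correction and to 13 and 18 with the percentile taken over probes above background.

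Of 6 inhibitors tested, 5 were lower in culture (83.3% beside 25.7% of all probes) and none was higher (beside 41.9%). *Dkk3* did not pass at -0.03 ± 0.23. *Shisa6* averaged -5.85 at background in GS cells and -2.29 in sorted cells, a fitted difference of -3.56 ± 0.29 (limma, adjusted p = 2.08e-05). Set against the background level of the GS cell arrays, it was at least 6.09-fold higher in sorted cells, a bound that was not itself tested. With the normexp background correction the difference of *Shisa6* was smaller than this bound, -1.25 on the log2 scale. The bound therefore holds only for the scanner's background subtraction, and the size of the fold depends on the correction. *Sfrp1* read between -3.00 and -1.96 in GS cells and between -0.75 and -0.26 in sorted cells, a difference of -1.96 ± 0.19 (adjusted p = 5.15e-05). The ranges of *Sfrp1* in the 2 materials did not meet. *Wif1* was 2.99-fold lower in culture, at -1.58 ± 0.23 (adjusted p = 0.000462), with FGF5 sample 2 (-0.06) inside the range of the sorted samples. *Sfrp2* and *Nkd1*, an intracellular brake on Dishevelled, were lower, at -0.78 ± 0.14 and -0.74 ± 0.18. A dimmer probe of *Nkd1* gave 0.65, the opposite direction.

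The ligands split. *Wnt3*, an activator of β-catenin in many tissues, read from -0.32 to -0.02 in GS cells and from -2.82 to -2.29 in sorted cells. It was 5.19-fold higher in culture, at 2.38 ± 0.14 (limma, adjusted p = 4.54e-06), with a wide gap between the materials. *Wnt5a*, known for non-canonical signaling, was higher by 0.72 ± 0.20, and *Wnt7a* was lower, at -0.88 ± 0.17. *Wnt6*, *Wnt10a* and *Wnt11* did not pass. *Porcn* was lower, at -0.67 ± 0.18.

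Of 13 receptors, 4 were higher in culture and 7 lower (30.8% and 53.8%, beside 41.9% and 25.7% of all probes). *Fzd6* rose most, from between -3.56 and -2.78 in sorted cells to between -1.21 and -1.08 in GS cells (2.03 ± 0.12, adjusted p = 4.82e-06). The co-receptors moved apart, with *Lrp5* higher by 1.13 ± 0.12 and *Lrp6* lower at -0.95 ± 0.11. The second probe of *Lrp6* gave -0.14 and did not pass. *Fzd7* and *Fzd8* were also higher, by 0.94 ± 0.18 and 0.74 ± 0.17, the latter above background in 2 of the 3 *Fgf5*-/- samples.

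*Fzd10* fell most among receptors, from between 1.86 and 2.5 in sorted cells to -0.40, 0.66, -0.62 and 0.12 in GS cells with and then without FGF5. The difference was -2.23 ± 0.22, or 4.68-fold (adjusted p = 5.58e-05). *Fzd9* and *Fzd4* were lower by more than 2-fold, at -1.66 ± 0.19 and -1.32 ± 0.14. *Fzd1*, *Fzd5* and *Fzd3* were lower by smaller amounts on their brightest probes, from -0.67 to -0.31, while *Fzd2* and *Ror2* did not pass. A dimmer probe of *Fzd5* gave a larger difference, -2.17 (limma, adjusted p = 6.0e-05).

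In the R-spondin system, *Rspo1* was 3.92-fold higher in culture (1.97 ± 0.31, adjusted p = 0.000652). Its 4 cultured values, 2.61 to 4.19, all lay above the sorted ones, 1.18 to 1.73. *Rspo2*, an R-spondin gene outside the 45, went the other way, at -2.06 ± 0.23 (limma, adjusted p = 0.000104), and *Rspo4* did not pass. R-spondins spare Frizzled by withdrawing the ligases Rnf43 and Znrf3 from the membrane. *Rnf43* was lower in culture, at -1.06 ± 0.20, and so was the R-spondin receptor gene *Lgr4*, at -0.42 ± 0.14, while *Znrf3* and *Lgr5* did not pass. In the destruction complex, *Axin1* and *Axin2* were lower, at -0.73 ± 0.10 and -0.46 ± 0.13, and *Apc* was higher, at 0.49 ± 0.10. *Ctnnb1* (0.15 ± 0.12) and, on its brightest probe, *Gsk3b* (0.25 ± 0.20) did not pass. Dimmer probes of *Gsk3b* gave -0.19, which did not pass, and 1.30, which did (limma, adjusted p = 0.00319). The dimmer probe of *Axin2* gave -0.07 and did not pass.

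All 4 nuclear factors passed, 3 lower and 1 higher in culture (75% and 25%, beside 25.7% and 41.9% of all probes). *Tcf7l1* read -5.56, -3.55, -6.03 and -4.65 in GS cells, in the order given for *Fzd10*, and from -0.35 to 0.13 in sorted cells. It had the largest difference of the set, -4.84 ± 0.40 (limma, adjusted p = 2.17e-05), with 2 of the 4 cultured arrays, both numbered 2, above background. With normexp the difference was -2.85, so its size depends on the background correction. *Lef1*, an activating factor, averaged 0.36 and 1.76, a difference of -1.40 ± 0.15, and its second probe gave -1.49. *Tcf7* was lower, at -0.85 ± 0.09, and its second probe gave -1.24. Both genes were thus lower in culture on each of their probes. *Tcf7l2* was higher by 0.70 ± 0.17, and its other 2 probes gave 0.19 and 0.62 without passing. Of the 8 β-catenin targets listed above, 7 were tested, 5 were lower in culture (71.4% beside 25.7% of all probes) and 0 were higher (beside 41.9%). The 5 include *Nkd1*, whose dimmer probe was higher, at 0.65 (adjusted p = 0.00141), and *Axin2*, whose dimmer probe did not pass, at -0.07.

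**Figure D3:**
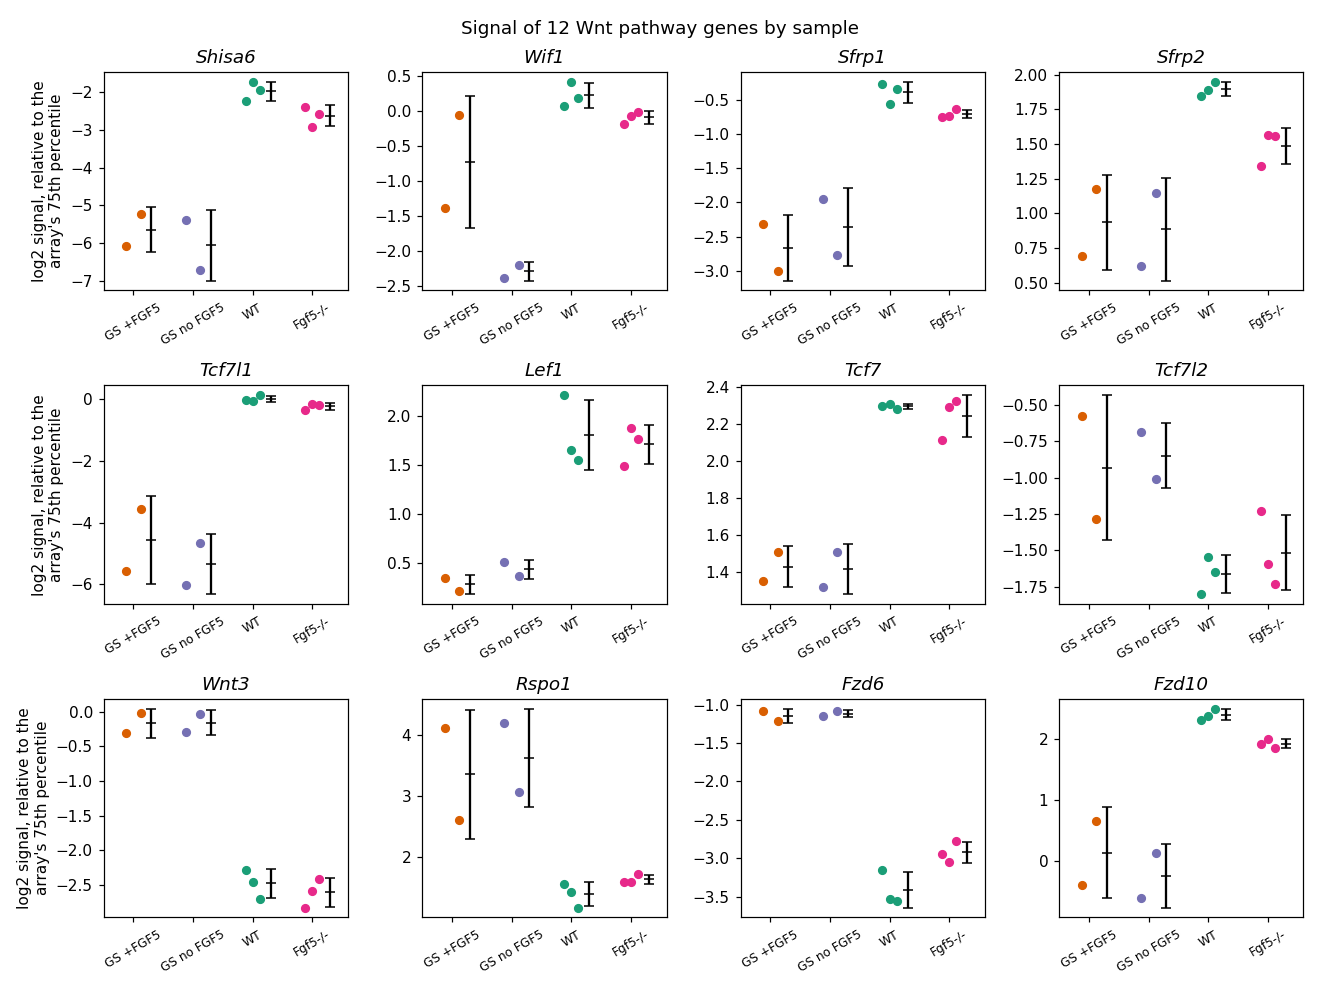
Level (log2 signal minus the array's log2 75th percentile) of 12 Wnt genes, with 1 point per sample and the mean ± SD of each group beside it. The groups are GS cells with and without FGF5 (n = 2 each) and sorted WT and *Fgf5*-/- cells (n = 3 each), and y axes differ between panels. *Tcf7l1*, *Lef1*, *Tcf7* and *Fzd10* lay lower in all GS cell samples than in any sorted sample, and *Wnt3* and *Rspo1* higher. *Shisa6* was at background in GS cells.

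**Figure D4:**
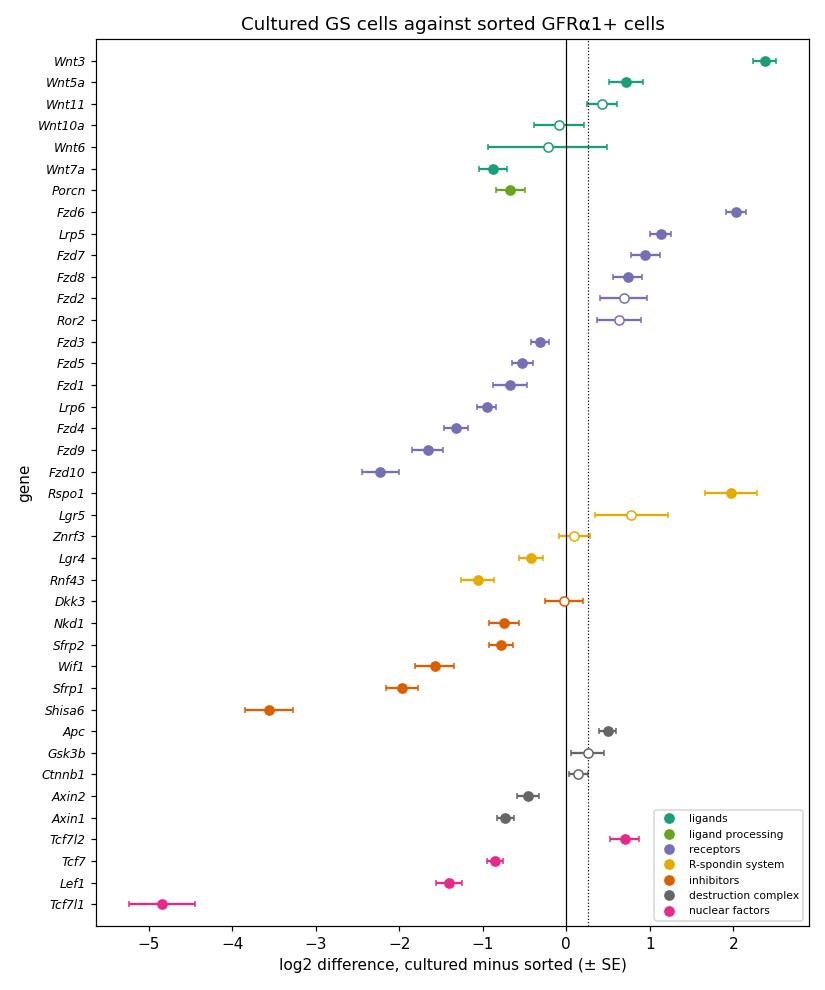
Log2 difference, cultured minus sorted, for the 40 tested genes (rows), colored by role, with bars of 1 SE. Filled points passed an adjusted p of 0.05, and the dotted line marks the median of all probes tested (0.26). None of the 6 inhibitors tested lies to the right of 0, and for *Shisa6* the plotted value is the fitted one, not the bound.

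The promoters of the 4 nuclear factors and of *Fzd10*, the receptor that fell most, are shown as examples. These 5 genes are among the 30 that passed the test between the materials. RefSeq promoters (GRCm38.p6) were given for 28 of the 45 genes, with 36 start sites. The 250 bases before each start were searched on both strands for CTTTGA and CTTTGT, the core bound by TCF/LEF factors, and for CCGGAAG, a core bound by ETS factors, a family that includes Etv5, a known FGF-responsive gene of spermatogonia. Capitals mark a match or its reverse complement, and each line runs 5′ to 3′ on the gene's strand. *Tcf7l1* lies at chr6:72789046-72789295 (minus), *Lef1* at chr3:131156044-131156293 (plus, 1 of 4 listed starts), *Tcf7* at chr11:52282596-52282845 (minus, 1 of 2), *Tcf7l2* at chr19:55895071-55895320 (plus, 1 of 2) and *Fzd10* at chr5:128600856-128601105 (plus). Where a gene had several starts, the one printed is the one with a match, and the others of *Lef1*, *Tcf7* and *Tcf7l2* held none.
Tcf7l1: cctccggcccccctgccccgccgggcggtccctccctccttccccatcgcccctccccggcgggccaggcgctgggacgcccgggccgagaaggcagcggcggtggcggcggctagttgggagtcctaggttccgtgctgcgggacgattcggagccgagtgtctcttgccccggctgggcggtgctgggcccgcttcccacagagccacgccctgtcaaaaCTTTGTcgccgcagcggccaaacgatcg
Lef1: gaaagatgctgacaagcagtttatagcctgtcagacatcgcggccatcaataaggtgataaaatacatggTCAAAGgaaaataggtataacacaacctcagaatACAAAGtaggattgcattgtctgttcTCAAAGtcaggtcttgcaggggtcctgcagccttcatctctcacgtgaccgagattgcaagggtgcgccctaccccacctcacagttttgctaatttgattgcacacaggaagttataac
Tcf7: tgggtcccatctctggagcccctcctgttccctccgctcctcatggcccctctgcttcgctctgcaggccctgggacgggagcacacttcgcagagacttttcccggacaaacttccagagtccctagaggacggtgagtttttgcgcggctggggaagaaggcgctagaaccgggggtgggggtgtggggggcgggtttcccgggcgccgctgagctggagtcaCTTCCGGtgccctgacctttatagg
Tcf7l2: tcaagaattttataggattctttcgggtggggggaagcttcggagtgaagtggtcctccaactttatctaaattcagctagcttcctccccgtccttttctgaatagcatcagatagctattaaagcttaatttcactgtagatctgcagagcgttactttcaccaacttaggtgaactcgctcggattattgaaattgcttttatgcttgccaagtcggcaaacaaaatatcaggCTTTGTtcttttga
Fzd10: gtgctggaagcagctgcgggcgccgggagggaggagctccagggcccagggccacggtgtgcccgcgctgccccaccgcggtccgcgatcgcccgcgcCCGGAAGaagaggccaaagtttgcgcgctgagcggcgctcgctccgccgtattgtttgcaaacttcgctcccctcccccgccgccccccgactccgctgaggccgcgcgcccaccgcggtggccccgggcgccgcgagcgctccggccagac
The *Lef1* sequence holds CTTTGA at 2 places and CTTTGT at 1, all on the opposite strand. *Tcf7l1* and *Tcf7l2*, which differed in opposite directions, each hold 1 CTTTGT. *Tcf7* and *Fzd10* each hold 1 CCGGAAG.

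These letters were about as frequent in the Wnt gene promoters as in all. CTTTGA was in 5 of the 36 (13.9%) beside 13.8% of all 32851 promoters, CTTTGT in 7 (19.4%) beside 16.5%, and CCGGAAG in 3 (8.33%) beside 6.91%. CTTTGA and CTTTGT differ in the last letter, so no place matches both on 1 strand. A match describes the sequence and is not evidence of binding.

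A list of 67 other Wnt pathway genes gave the wider view. In culture, 56 were tested and none passed limma, with 3 at an unadjusted p under 0.05 (5.36% beside 2.54% of all probes), and between genotypes 54 were tested and none passed, with 5 at an unadjusted p under 0.05 (9.26% beside 6.79%). *Dact2*, an intracellular modulator of Dishevelled, differed by 0.59 with FGF5 and by -1.05 in *Fgf5*-/- cells. *Apcdd1*, an inhibitor at the membrane, differed by -0.58 with FGF5 and by -0.32 in *Fgf5*-/- cells. *Sp5*, a target of β-catenin in embryos, differed by -0.48 in *Fgf5*-/- cells. Other negative regulators of this list went both ways between genotypes. Among them, *Kremen2* (0.33 ± 0.12, without overlap), *Sfrp4* (0.31 ± 0.19) and *Dkk2* (0.28 ± 0.24) were higher in *Fgf5*-/- cells, and *Sfrp5* (-0.36 ± 0.18) was lower. None of these passed the test.

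Between cultured and sorted cells, 38 of 57 of the other genes passed, 21 higher and 17 lower in GS cells (36.8% and 29.8%, beside 41.9% and 25.7% of all probes). *Ccnd1*, which encodes cyclin D1 and is a target of several pathways, was 21.9-fold lower in culture (-4.45 ± 0.31), with cultured values from -2.09 to -0.23 and sorted values from 2.75 to 3.23. *Dkk2*, an inhibitor of Lrp5 and Lrp6, was at background in all 4 GS cell samples and at least 1.74-fold higher in sorted cells. *Frzb*, a secreted decoy, was at background in all 6 sorted samples and at least 3.14-fold higher in culture. Other negative regulators of this list went both ways. Higher in culture were, among others, *Notum* (1.02 ± 0.12), *Dact3* (1.16 ± 0.16), *Kremen1* (0.62 ± 0.13) and *Nkd2* (0.48 ± 0.15). *Sfrp4* (-1.33 ± 0.16), *Dact1* (-0.95 ± 0.11) and *Apcdd1* (-0.68 ± 0.10) were lower. *Dact2* was lower in culture, at -2.13 ± 0.27, and *Dvl3*, a Dishevelled gene, and *Wls*, which carries Wnt ligands to the surface, were higher by 1.57 ± 0.43 and 1.30 ± 0.19. *Wls* was above background in 2 of the 3 WT samples. Of the 6 other Shisa genes on the array, all 6 were tested and 1 passed (16.7% beside 67.7% of all probes), *Shisa2*, at -1.27 ± 0.12. Between genotypes, 2 of these 6 were lower in *Fgf5*-/- cells without overlap (33.3% beside 9.2% of all probes). They were *Shisa9* (-0.83 ± 0.28, above background in 1 of 3 *Fgf5*-/- samples) and *Shisa2* (-0.15 ± 0.10), and neither passed the test.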

How the data were processed

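Total RNA was labeled with Cy3 and hybridized, 1 sample per array, to the 8x60K version of the Agilent whole mouse genome array. The authors deposited the scanner output, in which the processed signal of each spot is a background-subtracted intensity on a linear scale, from Feature Extraction 10.7.1.1 per the file headers (10.7.3.1 in the submitters' processing notes). They also deposited a table of normalized log2 values, made in GeneSpring with a floor of 1.0 and a shift to the 75th percentile, which was used as an alternative. Groups were read from the labels, whereas dose, duration and age are those of the study's methods. The files of the sorted cells hold no gene names, which were taken by probe name from the culture arrays. Coordinates of probes are those of the files, in mm9.

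The software was limma 3.58.1, run in R 4.3.3. Uneven and outlier spots were left out (117 to 205 of 62976 spots per array), repeated spots were averaged per probe after taking log2, and the log2 75th percentile of the 59305 non-control spots was subtracted. Probes entered a test if 1 or more of its groups had them well above background throughout. Each experiment was fitted alone with lmFit and eBayes, two-sided, and cultured against sorted cells in a fit of all 4 groups, with Benjamini-Hochberg adjustment over all tested probes and a threshold of 0.05. A gene at background on every array of a group was given as a bound, its other level over the higher of the array's background level and its own signal. Brighter probes are measured more precisely than dim ones, and no sequencing depth applies. The fits were tested on simulated data.

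The named genes were *Shisa6*, up to 12 called genes in each direction of a comparison or the 5 of largest difference, and those without overlap. The members, lists and tests were chosen with earlier results of these data known. The alternatives were quantile normalization, normexp with an offset of 50 on the median spot signal, the authors' table, another base of the percentile, no filter or a stricter one, the mean of a gene's probes, an intensity trend, all 10 arrays in 1 fit, a replicate block, other groups and leaving out each array.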

Additional observations from a re-analysis of the deposited data

How the results depend on the processing

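The counts of Wnt genes past the threshold stayed at 0 in culture and 0 between genotypes under every alternative run, and between 26 and 32 for cultured against sorted cells. Leaving out 1 array at a time gave 28 to 31. With the replicate number as a block, 0 genes passed in culture (5 at an unadjusted p under 0.05), 0 between genotypes (5) and 29 for cultured against sorted cells. Equally numbered samples deviated together in culture (r = 0.64), with 2 pairs, and not between genotypes (r = -0.42, -0.16 and -0.15), and the labels do not pair them. With 1 array left out at a time, differences that did not pass changed sign: in culture *Dkk3* ranged from -1.18 to 0.068, *Sfrp1* from -0.70 to 0.11 and *Rspo1* from -1.01 to 0.48, and between genotypes *Fzd1* ranged from -0.012 to 0.52 and *Wnt10a* from -0.23 to 0.50. None of the 21 genes named for cultured against sorted cells changed sign in 438 alternative values, but *Fzd8* (0.27 with quantile normalization, and 0.54 with GS cells with FGF5 against WT), *Tcf7l2* (0.50 as the mean of its probes) and *Wnt7a* (-0.15 with normexp) no longer passed. Differences that passed but moved by over 1.5 times included those of *Tcf7l1* (-2.85), *Shisa6* (-1.25) and *Rnf43* (-0.28) with normexp. So did *Apc* (1.09 as the mean of its probes) and *Wif1* (-2.52 for GS cells without FGF5 and -0.95 for those with FGF5 against WT). At their furthest passing values, *Fzd4* (-0.80), *Lrp6* (-0.55) and *Wnt7a* (-1.39) also moved by over 1.5 times. *Sfrp1* moved by less, to -1.33 with normexp. The median of all probes moved by -0.17 with quantile normalization and by 0.15 with the percentile over probes above background in that comparison. The cause of these changes was not tested. Dim genes such as *Tcf7l1* in culture are limited by their signal over background.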
